A study of Mus musculus with 9 samples.

Results

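The comparison described here set small RNA from MIN6 cells, a mouse insulinoma line used as a model of the pancreatic beta cell, against small RNA from mouse liver, with every library made by the Illumina TruSeq protocol. It rested on 4 of the 9 libraries of the series, namely the 3 libraries labelled TruSeq MIN6 RNA rep1 to rep3 and the 1 library labelled TruSeq Mouse Liver RNA, which were chosen by their labels alone. MIN6 cells were grown in high glucose (25 mM) DMEM with 10% heat-inactivated fetal bovine serum, and no treatment of them is named. The liver came from 1 female C57BL/6J mouse, bought at 9 weeks of age, that had been injected through the tail vein with sterile saline and fasted overnight before collection. MIN6 is a tumour line of a single cell type, whereas the liver was whole tissue from 1 animal and so held blood, endothelial and stromal cells beside hepatocytes. In such bulk samples, fewer cells of a type and less RNA per cell cannot be told apart. The MIN6 libraries were sequenced on a GAIIx from RNA extracted with TRIzol, and the liver library on a HiSeq from RNA extracted with a Norgen column kit, so cell type, animal, platform and extraction cannot be told apart either. The labels give the MIN6 replicates a number but no culture of origin, and p-values below measure only the spread between these 3 libraries. A pair of libraries made with NEXTflex V2, a protocol whose adapters end in random bases, covered MIN6 (1 library) and the same liver RNA (1 library), and their values are given for the sums over each list and for part of the named miRNAs. Both were run on a HiSeq, and the NEXTflex MIN6 library came from MIN6 RNA other than that of the 3 TruSeq libraries used here.

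MicroRNAs (miRNAs) are RNAs of about the length of a primer that are cut from hairpin precursors, loaded into Argonaute and guided to messenger RNAs mainly by their seed, bases 2 to 8 from the 5′ end. Many are shared by nearly all tissues, but a few are made at very high level in 1 lineage. In beta cells the best known is miR-375, which acts on insulin secretion and beta cell mass, followed by the miR-7 family. In hepatocytes it is miR-122, which is needed for normal cholesterol and lipid metabolism, followed by the miR-192 and miR-194 pair made from shared primary transcripts.

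The sequences below are those of the miRNAs that carry the contrast and that had an entry in the RefSeq table (build GRCm38.p6), which held 47 of the 56 miRNAs named by the rule used here and 170 of the 203 miRNAs tested. Capitals mark the seed, and bases outside it are in lower case. Members that share a seed stand next to each other: the miR-7 pair and the miR-29 trio were high in MIN6, the miR-10 pair was high in liver, and miR-25-3p and miR-92a-3p, with the same seed, went opposite ways.
miR-7a-5p: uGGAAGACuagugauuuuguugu
miR-7b-5p: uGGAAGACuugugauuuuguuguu
miR-29a-3p: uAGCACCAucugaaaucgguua
miR-29b-3p: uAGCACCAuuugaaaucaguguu
miR-29c-3p: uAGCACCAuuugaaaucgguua
miR-141-3p: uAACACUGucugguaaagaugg
miR-192-5p: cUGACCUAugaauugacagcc
miR-194-5p: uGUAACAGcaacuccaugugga
miR-10a-5p: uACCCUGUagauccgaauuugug
miR-10b-5p: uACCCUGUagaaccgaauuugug
miR-25-3p: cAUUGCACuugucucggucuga
miR-92a-3p: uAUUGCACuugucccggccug
In GRCm38.p6 miR-29a-3p lies at chr6:31062673-31062694 on the minus strand and miR-29c-3p at chr1:195037600-195037621 on the plus strand. miR-192-5p lies at chr19:6264857-6264877 on the plus strand, and 1 of the 2 copies of miR-194-5p lies in the same stretch at chr19:6264658-6264679. miR-10a-5p lies at chr11:96317186-96317208 and miR-10b-5p at chr2:74726074-74726096, both on the plus strand.

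The deposited counts summed to 6923460, 7137973 and 12458630 in MIN6 libraries 1 to 3 and to 17875869 in the liver library. Counts within 5 nt of a named miRNA start made up 66.7%, 70.0% and 70.1% of the MIN6 libraries and 46.1% of the liver library, against 85.8% and 83.5% in the NEXTflex MIN6 and liver libraries. Levels are given as counts at the reference 5′ end per 1000000 mapped reads (RPMM), with the copies of a mature miRNA summed. The MIN6 libraries were close to each other, with a median coefficient of variation of 4.88% over the 203 miRNAs that reached 100 RPMM in at least 1 of the 4 libraries. Of these 203, 102 reached that level in MIN6 but not in liver, 30 in liver only and 71 on both sides, so 132 entered the test through 1 side alone.

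Liver and MIN6 differed at nearly every miRNA tested. With edgeR's quasi-likelihood test and Benjamini-Hochberg adjustment over all 203, 197 (97%) passed an adjusted p of 0.05, of which 52 (25.6% of those tested) were higher in liver and 145 (71.4%) were lower. The single liver library has no spread of its own, and the fit assumed that it varied like the 3 MIN6 libraries. An exact permutation test of 3 libraries against 1 could not go below p = 0.25 for any single miRNA. The level in liver lay outside the range of the 3 MIN6 libraries for 202 of 203 miRNAs (99.5%), so a lack of overlap set no miRNA apart from the rest. By size, 25 miRNAs (12.3%) were over 10-fold higher in liver and 96 (47.3%) over 10-fold higher in MIN6, with folds taken after adding 1 RPMM to both sides. These shares depended on how a miRNA had entered the test. Of the 102 that entered through MIN6 alone, 100% were called lower in liver and 88.2% were over 10-fold lower. Of the 30 that entered through liver alone, 100% were called higher in liver and 66.7% were over 10-fold higher. Of the 71 that entered through both sides, 31% were called higher and 60.6% lower, 7.04% were over 10-fold higher and 8.45% over 10-fold lower. A count over a list that entered mostly through 1 side is therefore a description of that list and sets it apart from nothing.

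The balance between the directions depended on the scaling. Over all 203 miRNAs the median log2 ratio of liver to MIN6 was -3.09 when scaled by mapped reads, and -0.51 over the 71 that reached 100 RPMM in every library. TMM factors raised liver against MIN6 by 2.02 and DESeq2 size factors by 2.90 on the log2 scale before the constant was added, which turned the split of 52 higher and 145 lower into 87 and 109 or into 97 and 100. Ratios far outside this range, and those of all tested beta-cell and hepatocyte miRNAs below, kept their sign under each scaling.

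**Figure D1:**
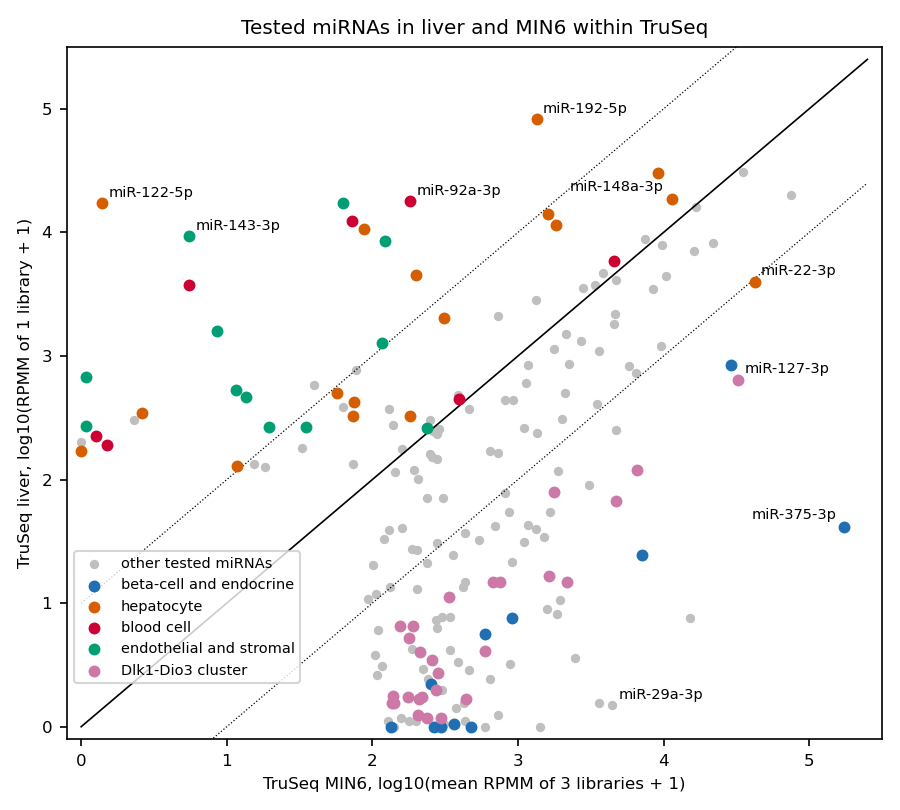
Level of each of the 203 tested miRNAs in the TruSeq liver library (vertical axis) against the mean of the 3 TruSeq MIN6 libraries (horizontal axis), both as log10 of RPMM plus 1, with 5 lists coloured. The solid line marks equal levels and the dotted lines 10-fold differences; miR-375-3p lies far to the right, miR-122-5p far to the left, and the blood cell and the endothelial and stromal lists lie on or above the solid line.

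The most abundant miRNA was a different one in each source. miR-375-3p led the MIN6 libraries at 163124, 186331 and 174391 RPMM, which was 23.5% to 25.5% of all their counts within 5 nt of a named miRNA start. miR-192-5p led the liver library at 82266 RPMM, or 16.4% of such counts. Among the 10 most abundant in each, 3 were shared, namely miR-26a-5p, miR-27b-3p and let-7f-5p, all of which occur in most tissues.

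Beta-cell and endocrine miRNAs were all higher in MIN6. All 11 listed members were tested, all 11 were called lower in liver, and all 11 differed by over 10-fold, beside 71.4% and 47.3% over all tested miRNAs. With TMM or DESeq2 factors 10 of the 11 did, miR-182-5p being 8.21-fold or 4.44-fold higher in MIN6. Of the 11, 10 entered the test through MIN6 alone, where 100% were called lower and 88.2% were over 10-fold lower, so these counts do not set the list apart. The list summed to 214006 ± 12012 RPMM in MIN6 (SD, n = 3) and to 923 RPMM in liver, and to 388643 and 798 RPMM in the NEXTflex pair.

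miR-375-3p, the islet miRNA, stood at 40.0 RPMM in liver, from 659 counts. Its level in MIN6 was thus 4262-fold higher (edgeR log2 ratio of -12.09 ± 0.17 SE, adjusted p = 1.61e-09). The NEXTflex pair had 64950 RPMM in MIN6 and 26.7 RPMM in liver.

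Next to it came the miR-182, miR-183 and miR-96 cluster, made from 1 primary transcript and known from sensory and neuroendocrine cells. miR-182-5p was at 29156, 29528 and 28310 RPMM in MIN6 and at 848 RPMM in liver, a 34.2-fold difference and the smallest of the list, with 18539.9 and 79.1 RPMM in the NEXTflex pair. miR-183-5p was at 6913, 7407 and 7015 RPMM in MIN6 against 23.3 RPMM in liver, with 201 and 0.0695 RPMM in the NEXTflex pair. miR-96-5p was at 266, 278 and 215 RPMM in MIN6 against 1.21 RPMM, or 20 counts, in liver. The cluster members thus kept the same order of level in both sources, miR-182-5p first and miR-96-5p last.

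The miR-7 family, made in endocrine cells of the pancreas and in neurons, was far from the top of the TruSeq MIN6 libraries. miR-7a-5p was at 1015, 782 and 915 RPMM in MIN6, which placed it 66th, and at 6.61 RPMM in liver. miR-7b-5p was at 380, 338 and 366 RPMM in MIN6 and had 1 count in liver, a ratio of 5973 with a 95% counting interval of 1072 to 235931. miR-7a-2-3p, from the other arm of a miR-7a precursor, was at 295, 297 and 298 RPMM in MIN6 and had no count in liver. In the NEXTflex pair miR-7a-5p was at 248933 RPMM in MIN6 and 678 RPMM in liver, and miR-7b-5p at 52492 and 8.95 RPMM. Liver was the lower side for all 3 with both preparations, while the level within MIN6 differed widely between them.

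For the remaining members the liver library held few or no counts. miR-184-3p, which acts on Argonaute2 in beta cells, was at 545, 622 and 614 RPMM in MIN6 and 4.61 RPMM in liver. miR-153-3p, encoded within the gene of the secretory granule protein Ptprn2, was at 419, 470 and 544 RPMM in MIN6 with no count in liver. miR-483-3p and miR-483-5p, from an intron of Igf2, were at 257 to 269 and at 118 to 143 RPMM in MIN6, both with no count in liver. Against a floor of 3 counts in the liver library, 0.182 RPMM, these were at least 2626-fold (miR-153-3p), 1630-fold (miR-7a-2-3p), 1445-fold (miR-483-3p) and 727-fold (miR-483-5p) higher in MIN6. The list's median log2 ratio was -8.04, and -9.51 with no constant added and the members without counts placed at that floor. Intervals and floors cover counting error only.

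**Figure D2:**
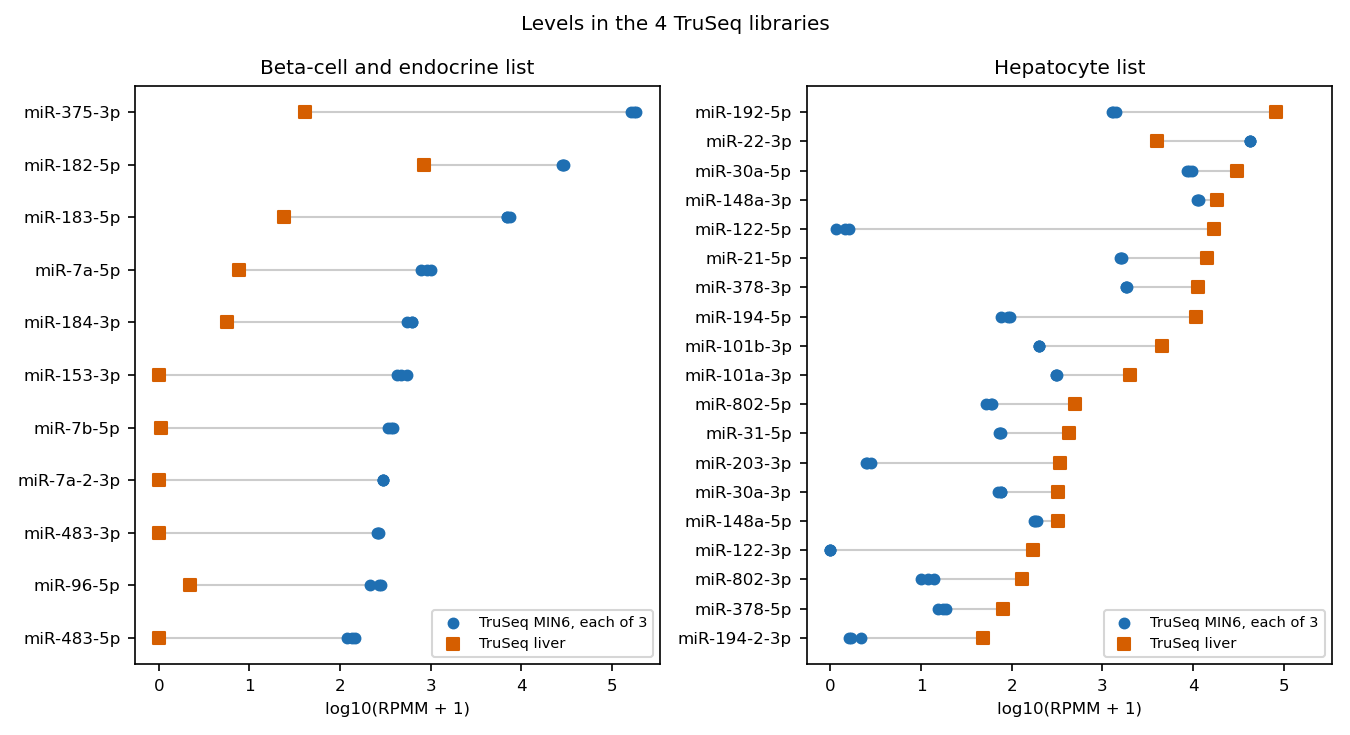
Level in each of the 4 TruSeq libraries, as log10 of RPMM plus 1, of the 11 beta-cell and endocrine miRNAs (left) and the 19 hepatocyte miRNAs (right); circles are the 3 MIN6 libraries, squares the liver library, and a line joins the MIN6 mean to liver. The circles lie close together beside the gap to the square, and miR-22-3p is the only hepatocyte miRNA with its square on the left.

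Hepatocyte miRNAs were higher in liver with 1 exception. Of 19 listed members 17 were tested, of which 16 were called higher in liver, 1 was called lower and 7 were over 10-fold higher in liver, a count that became 14 with TMM and 16 with DESeq2 factors. Over all tested miRNAs 25.6% were called higher in liver and 12.3% were over 10-fold higher. Of the 17, 8 entered the test through liver alone, where 100% were called higher and 66.7% were over 10-fold higher, and 9 through both sides. The list summed to 197451 RPMM in liver and 68543 ± 967 RPMM in MIN6 (SD, n = 3), a 2.88-fold difference, and miR-22-3p alone made up most of the MIN6 sum. In the NEXTflex pair the sums were further apart, at 603857 RPMM in liver and 17341 RPMM in MIN6 or 34.8-fold. Most of that liver sum was miR-122-5p. The median log2 ratio over the tested members was smaller in NEXTflex, at 1.84 against 3.14 in TruSeq, and 4 of the 17 tested members were lower in liver there.

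miR-122-5p, the miRNA that defines the hepatocyte, was at 0.150, 0.438 and 0.581 RPMM in the MIN6 libraries, from 11 counts in all, and at 17244 RPMM in liver. The ratio without an added constant was 40023 with a 95% counting interval of 22368 to 80177 (edgeR adjusted p = 2.44e-10). miR-122-3p, from the other arm of the hairpin, had no count in MIN6 and 169 RPMM in liver, at least 1442-fold higher against a floor of 3 counts over the 3 MIN6 libraries. In TruSeq liver miR-122-5p was only the 7th most abundant miRNA, whereas in NEXTflex liver it stood at 532452 RPMM and ranked 1st, with 128 RPMM in NEXTflex MIN6.

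The miR-192 and miR-194 pair, enriched in epithelium of liver, gut and kidney, was also higher in liver. miR-192-5p was at 1291, 1308 and 1428 RPMM in MIN6, 61.2-fold under its liver level (edgeR log2 ratio of 5.94 ± 0.07 SE, adjusted p = 9.92e-10). miR-194-5p was at 75.3, 90.5 and 95.0 RPMM in MIN6 and at 10684 RPMM in liver, a 122-fold difference. The liver level of miR-192-5p was thus 82266 RPMM against 10684 RPMM for its partner, while NEXTflex liver had 6026 and 14899 RPMM. Which of the pair read higher in liver thus differed between the preparations, while liver was above MIN6 for both with either one. miR-194-2-3p, below the minimum for the test, had 47.2 RPMM in liver and 0.602, 1.17 and 0.664 RPMM in MIN6.

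Other liver miRNAs differed less. miR-21-5p, abundant in many tissues and raised in the regenerating liver, was at 1571, 1591 and 1626 RPMM in MIN6 and 14170 RPMM in liver, 8.87-fold higher. miR-378-3p, from an intron of Ppargc1b, was at 1851, 1824 and 1834 RPMM in MIN6 and 11385 RPMM in liver, 6.20-fold higher. miR-30a-5p was at 8577, 9045 and 9721 RPMM in MIN6 and 30218 RPMM in liver, 3.32-fold higher. In all 3 cases the MIN6 libraries lay within a narrow band well under the liver library, and the NEXTflex ratios had the same direction at 5.17-fold, 6.91-fold and 2.22-fold.

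The miR-101 pair, which targets the Ezh2 methyltransferase, differed by copy. miR-101b-3p was at 200, 201 and 198 RPMM in MIN6 and 4495 RPMM in liver, 22.4-fold higher, or 11-fold with all 5′ ends within 5 nt summed. miR-101a-3p was at 310, 311 and 308 RPMM in MIN6 and 2017 RPMM in liver, 6.49-fold higher, or 2.77-fold with those ends summed. Of its counts at the reference start, 27.7% in liver and 50.9% to 53.1% in MIN6 had no mismatch, and with these alone it was 3.43-fold higher in liver. miR-802-5p was at 59.0, 58.6 and 51.2 RPMM in MIN6 and 504 RPMM in liver. miR-203-3p, known from epithelia, was at 1.46 to 1.81 RPMM in MIN6 and 343.5 RPMM in liver, and miR-31-5p at 71.5 to 75.7 RPMM and 424 RPMM. miR-30a-3p was 4.41-fold higher in liver, and miR-378-5p, not tested, was 4.66-fold higher.

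miR-148a-3p, which represses the LDL receptor, was close on both sides. It was at 11018, 11741 and 11247 RPMM in MIN6 and 18624 RPMM in liver, 1.64-fold higher (edgeR log2 ratio of 0.72 ± 0.06 SE, adjusted p = 1.35e-05). The passenger strand miR-148a-5p was at 188, 176 and 177 RPMM in MIN6 and 324 RPMM in liver. With NEXTflex both strands had the opposite direction, at 4285 RPMM in MIN6 and 3056 RPMM in liver for miR-148a-3p and at 60.6 and 35.4 RPMM for miR-148a-5p.

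miR-22-3p went against the rest of its list. This miRNA of many tissues was the 3rd most abundant in MIN6, at 42226, 42103 and 42600 RPMM, and stood at 4003 RPMM in liver, 10.6-fold lower and under 10-fold with TMM, DESeq2 or miRNA-start scaling (edgeR log2 ratio of -3.40 ± 0.07 SE, adjusted p = 6.26e-09). The NEXTflex libraries had 599 RPMM in MIN6 and 365 RPMM in liver, the same direction at 1.64-fold.

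Most listed blood cell miRNAs were higher in the liver library, though miR-92a-3p, the largest of them there, and miR-16-5p are also widespread. All 7 listed were tested, 6 were called higher in liver, 5 of them over 10-fold, and none was called lower, beside 25.6% and 12.3% over all tested miRNAs. Of the 7, 4 entered the test through liver alone, where 66.7% were over 10-fold higher. The summed level was 40891 RPMM in liver and 5031 to 5473 RPMM in the MIN6 libraries, where miR-16-5p, found in most cells, made up most of the sum. The NEXTflex sums were 18405 RPMM in liver and 10722 RPMM in MIN6, 1.72-fold apart. miR-486-5p, an erythroid miRNA from an intron of Ank1, was at 74.2, 72.6 and 67.2 RPMM in MIN6 and 12355 RPMM in liver, with 43.1 and 3289 RPMM in the NEXTflex pair. miR-92a-3p, of the miR-17 to miR-92 clusters, was at 177, 184 and 182 RPMM in MIN6 and 18020 RPMM in liver, where it ranked 6th, with 46.4 and 2358 RPMM in the NEXTflex pair. Only 28.3% of its TruSeq liver counts had no mismatch, and the lower fold from these alone is given below with its seed family. miR-16-5p differed little, at 4437, 4513 and 4829 RPMM in MIN6 and 5879 RPMM in liver. The defining markers were near absent from MIN6: miR-451 had 8 counts over the 3 libraries, miR-150-5p, of lymphocytes, had 14 and miR-142-5p, of all blood lineages, had 116. The liver library held 225, 188 and 3777 RPMM of these 3. miR-146a-5p, at 338, 453 and 389 RPMM in MIN6 and 447 RPMM in liver, was the 1 miRNA of 203 with overlapping groups (adjusted p = 0.257, edgeR).

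Endothelial and stromal miRNAs were higher in liver as well. Of 13 listed, 12 were tested and 11 were called higher in liver, 10 of them over 10-fold, beside 25.6% and 12.3% over all tested miRNAs, and the exception, miR-195-5p, did not pass (adjusted p = 0.121, edgeR). Of the 12, 9 entered the test through liver alone, where 100% were called higher and 66.7% were over 10-fold higher, so these counts do not set the list apart. The list summed to 40697 RPMM in liver and 635 to 670 RPMM in MIN6, a 62.3-fold difference. In the NEXTflex pair the sums were 7532 RPMM in liver and 1018 RPMM in MIN6, a 7.40-fold difference, with miR-10b-5p and miR-195-5p lower in liver. miR-143-3p, of smooth muscle and fibroblasts, was at 4.36, 5.11 and 4.15 RPMM in MIN6 and 9373 RPMM in liver, 1691-fold higher, with 0.508 and 1745 RPMM in the NEXTflex pair. miR-126-5p, from an intron of the endothelial gene Egfl7, was at 125, 117 and 120 RPMM in MIN6 and 8505 RPMM in liver, 69.9-fold higher, with 14.9 and 841 RPMM in the NEXTflex pair. miR-10a-5p, encoded in the Hoxb cluster, was at 62.9, 63.5 and 60.4 RPMM in MIN6 and 17162 RPMM in liver, 271-fold higher. In TruSeq liver the blood and the endothelial and stromal lists thus stood at 40891 and 40697 RPMM beside 197451 RPMM for the hepatocyte list, and in NEXTflex liver, from the same RNA, at 18405 and 7532 RPMM beside 603857 RPMM. Most of this last sum was miR-122-5p alone, and the blood sums include the widespread miR-92a-3p and miR-16-5p. The part of the blood and the endothelial and stromal lists in the other differences was not tested. miR-145-5p and miR-100-5p had 2 counts each over the MIN6 libraries, and their ratios without a constant were 3434 (95% counting interval 950 to 28367) and 8556 (2368 to 70656).

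**Figure D3:**
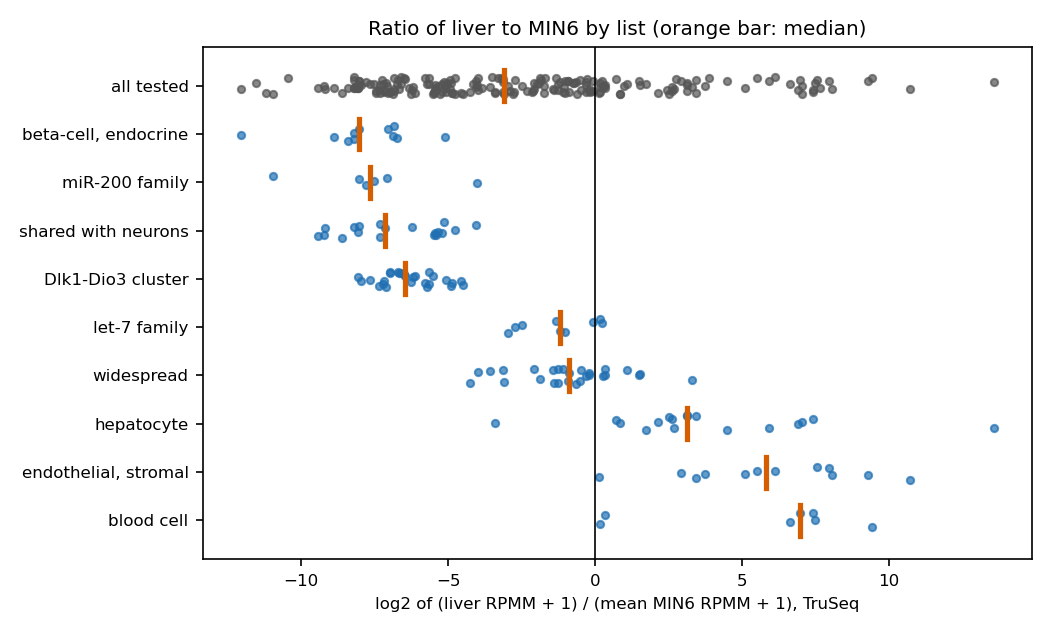
Log2 ratio of liver to MIN6 within TruSeq for each tested miRNA, grouped by list, with the median of each list as an orange bar. The medians run from -8.04 for the beta-cell and endocrine list to 6.98 for the blood cell list, around a median of -3.09 over all 203.

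miRNAs of the imprinted Dlk1-Dio3 cluster were lower in liver throughout. This cluster holds one of the largest groups of miRNAs in the mouse genome and is active in islets, brain and embryo and mostly silent in adult liver. All 38 placed members had a lower level in liver, as did 148 of the 203 tested miRNAs. Of the 38, 27 were tested, and all 27 were called and differed by over 10-fold, beside 71.4% and 47.3% over all tested miRNAs. But 25 of the 27 entered the test through MIN6 alone, where 100% were called lower and 88.2% differed as much, so these counts do not set the cluster apart. The count over 10-fold was 22 with TMM and 16 with DESeq2 factors. The median log2 ratio over the 27 was -6.47, between -8.05 for miR-136-5p and -4.48 for miR-411-5p. miR-127-3p, antisense to the retrotransposon-like gene Rtl1, was at 30878, 32382 and 34595 RPMM in MIN6, the 5th most abundant, and at 644 RPMM in liver, with 935 and 14.9 RPMM in the NEXTflex pair. miR-541-5p was at 6979, 6701 and 6068 RPMM in MIN6 and 117 RPMM in liver. miR-434-3p was at 4800, 4555 and 4810 RPMM in MIN6 and 66.3 RPMM in liver. The cluster as a whole summed to 56025 ± 1709 RPMM in MIN6 (SD, n = 3) and 1013 RPMM in liver, a 55.3-fold difference, and to 7983 and 50.3 RPMM in the NEXTflex pair.

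The miR-200 family, which keeps epithelial cells epithelial by repressing Zeb1 and Zeb2, was also lower in liver. All 6 members were tested, called and over 10-fold lower, beside 71.4% and 47.3% over all tested miRNAs. Of the 6, 5 entered through MIN6 alone, where 100% were called and 88.2% were over 10-fold lower. With TMM or DESeq2 factors 5 of the 6 were over 10-fold lower, miR-200b-3p then being 3.94-fold or 2.13-fold lower. miR-141-3p was at 14761, 14967 and 15768 RPMM in MIN6, where it ranked 10th, and 6.61 RPMM in liver, 1993-fold lower, with 2247 and 0.556 RPMM in the NEXTflex pair. miR-200c-3p was at 1968, 2027 and 1832 RPMM in MIN6 and 9.67 RPMM in liver. miR-200b-3p was at 1833, 1977 and 1873 RPMM in MIN6 and 115 RPMM in liver, which at 16.3-fold was the smallest difference of the family. The family summed to 21644 ± 397 RPMM in MIN6 (SD, n = 3) and 140.4 RPMM in liver, and to 15148 and 102 RPMM in the NEXTflex pair.

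Neuronal miRNAs, only some of which are known to be shared with beta cells, followed the same pattern. Of 22 placed members all 22 were lower in liver, as were 148 of the 203 tested miRNAs. All 19 tested members were called and over 10-fold lower, beside 71.4% and 47.3% over all tested miRNAs. Each of the 19 entered through MIN6 alone, where 100% were called and 88.2% were over 10-fold lower, so these counts do not set the list apart. The count over 10-fold was 15 with TMM and 11 with DESeq2 factors. miR-138-5p was at 2510, 2500 and 2326 RPMM in MIN6 and 2.57 RPMM in liver, with 208 RPMM and no count in the NEXTflex pair. miR-128-3p was at 1063, 1079 and 1155 RPMM in MIN6 and 30.3 RPMM in liver. miR-149-5p was at 987, 877 and 862 RPMM in MIN6 and 20.5 RPMM in liver, with 37.2 and 17.9 RPMM in the NEXTflex pair. Of the 19 tested members, 5 had at most 3 counts in TruSeq liver, and 3 of these had none. The list summed to 116 RPMM there against 10290 to 10438 RPMM in MIN6, and to 65.4 RPMM in NEXTflex liver against 8687 RPMM in NEXTflex MIN6.

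A few miRNAs with no place on these lists had equally large differences. All 3 members of the miR-29 family, which targets collagen transcripts and, in beta cells, the lactate transporter Mct1, were nearly missing from TruSeq liver. miR-29a-3p was at 4302, 4393 and 4598 RPMM in MIN6 and 0.485 RPMM in liver, from 8 counts, a ratio of 9205 (95% counting interval 4671 to 21321). miR-29c-3p was at 1444, 1400 and 1406 RPMM in MIN6 with no count in liver, at least 7785-fold higher. miR-29b-3p was at 336, 294 and 298 RPMM in MIN6 with 1 count in liver. The same liver RNA prepared with NEXTflex gave 176, 42.2 and 0.626 RPMM for miR-29a-3p, miR-29c-3p and miR-29b-3p, and NEXTflex MIN6 gave 6580, 632 and 592 RPMM. The difference had the same direction in both preparations and was 37.3-fold for miR-29a-3p within NEXTflex. miR-879-5p was at 3609, 3720 and 3473 RPMM in MIN6 and 0.546 RPMM in liver, from 9 counts, with 29.1 RPMM and no count in the NEXTflex pair.

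On the liver side, the 5 largest differences among miRNAs of at least 1000 RPMM were those of miR-122-5p, miR-143-3p, miR-142-5p, miR-10a-5p and miR-10b-5p. miR-142-5p was at 3.61, 5.26 and 4.65 RPMM in MIN6 and 3777 RPMM in liver, 686-fold higher. miR-10b-5p, encoded in the Hoxd cluster, was at 8.73, 7.74 and 6.19 RPMM in MIN6 and 1602 RPMM in liver, 187-fold higher. Its NEXTflex values were 7.69 RPMM in MIN6 and 0.313 RPMM in liver, the opposite direction, whereas miR-10a-5p, which has the same seed, was higher in liver with NEXTflex as well, at 610 against 47.9 RPMM. Of these 5, only miR-122-5p is on the hepatocyte list.

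Families that share a seed were compared member by member. Among tested miRNAs with a RefSeq sequence, 22 seeds had at least 2 members, and the members went in both directions for 11 of these seeds, all lower in liver for 8 and all higher for 3. This split holds for scaling by mapped reads only, since TMM or DESeq2 factors raise liver against MIN6. With TMM factors miR-27b-3p, of a family all lower by mapped reads, was higher in liver (log2 ratio of 0.17). In the family of miR-25-3p and miR-92a-3p, printed above, miR-25-3p was at 3256, 3568 and 3659 RPMM in MIN6 and 409 RPMM in liver, while miR-92a-3p was 98.9-fold higher in liver. Only 28.3% of the liver counts of miR-92a-3p came from alignments without a mismatch, against 64.7% to 71.4% in MIN6, and with these alone it was 40.5-fold higher. Summed over miR-25-3p, miR-92a-3p and miR-92b-3p, the seed was at 3794 ± 220 RPMM in MIN6 (SD, n = 3) and 18461 RPMM in liver. In the miR-99 family miR-99b-5p was at 4385, 4686 and 4900.5 RPMM in MIN6 and 2184 RPMM in liver, and miR-100-5p was at 670 RPMM in liver against the 2 counts in MIN6. There the sum over the family was 4691 ± 258 RPMM in MIN6 and 3118 RPMM in liver, so the sum differed less than miR-100-5p did alone.

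The let-7 family, the most abundant seed in many adult tissues, had 9 members, all of which passed the minimum on both sides. It summed to 63930 ± 374 RPMM in MIN6 (SD, n = 3) and 40607 RPMM in liver, and to 242757 and 141457 RPMM in the NEXTflex pair, with 2 members called higher in liver, 6 called lower and let-7f-5p not called (adjusted p = 0.305, edgeR). Over all tested miRNAs 25.6% were higher and 71.4% lower, and over those that entered through both sides 31% and 60.6%. let-7f-5p was at 16201, 17029 and 16860 RPMM in MIN6 and 15955 RPMM in liver. let-7c-5p was at 16243, 16118 and 16389 RPMM in MIN6 and 7131 RPMM in liver. let-7i-5p was at 9359, 9657 and 9583 RPMM in MIN6 and 1212 RPMM in liver, 7.86-fold lower. Alignments without a mismatch made up 51.5% of its liver counts and 90.5% to 93.8% of its MIN6 counts, and with these alone it was 14.1-fold lower. The spread among members ran from -2.97 to 0.25 on the log2 scale, and the direction of the family depended on the scaling: 2 of 9 were higher in liver by mapped reads, 6 with TMM factors and 8 with DESeq2 size factors.

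Widespread miRNAs showed the same dependence. All 27 were tested, 7 were called higher in liver and 20 lower, beside 25.6% and 71.4% over all tested miRNAs, with a median log2 ratio of -0.88, and with TMM factors 21 of the 27 were higher in liver. The list summed to 203221 to 216215 RPMM in MIN6 and 108495 RPMM in liver, and to 105494 and 48706 RPMM in the NEXTflex pair. miR-27b-3p was at 72822, 72256 and 79270 RPMM in MIN6 and 20209 RPMM in liver. miR-26a-5p was at 34163, 35370 and 35330 RPMM in MIN6 and 30682 RPMM in liver (1.14-fold lower, edgeR adjusted p = 0.0174). miR-191-5p was at 21400, 22005 and 22549 RPMM in MIN6 and 8218 RPMM in liver. All 3 of these were lower in liver by mapped reads and higher with TMM or DESeq2 factors.

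The NEXTflex pair gave the contrast between the same kinds of sample with other adapters, 1 library a side, without a test. The ratio of liver to MIN6 had the same direction as in TruSeq for 185 of the 203 miRNAs, the opposite direction for 16 and no direction for 2, where both NEXTflex libraries were at 0. In NEXTflex 45 miRNAs were higher in liver and 156 lower, so a shared direction was common for that reason too. Of the 25 miRNAs over 10-fold higher in TruSeq liver, 20 were so with NEXTflex and 2, miR-10b-5p and miR-802-3p, had the opposite direction. Of the 96 over 10-fold higher in TruSeq MIN6, 87 were so with NEXTflex and 0 had the opposite direction. Over all 203, 10.3% were over 10-fold higher in liver and 48.8% over 10-fold higher in MIN6 with NEXTflex. Both contrasts used the same liver RNA.

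A ratio between the samples moved less between the preparations than the level in a sample did. The log2 ratio of liver to MIN6 differed between TruSeq and NEXTflex by a median of 1.12 in size over the 203 miRNAs. The level of a miRNA differed by a median of 1.40 within MIN6 and 1.43 within liver on the same scale. Over the 71 miRNAs of at least 100 RPMM in every TruSeq library these medians were 0.81, 1.31 and 1.54. The log2 ratios of the 2 preparations had a Pearson correlation of 0.90 across the 203 miRNAs, which share libraries and the liver RNA and are not independent.

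**Figure D4:**
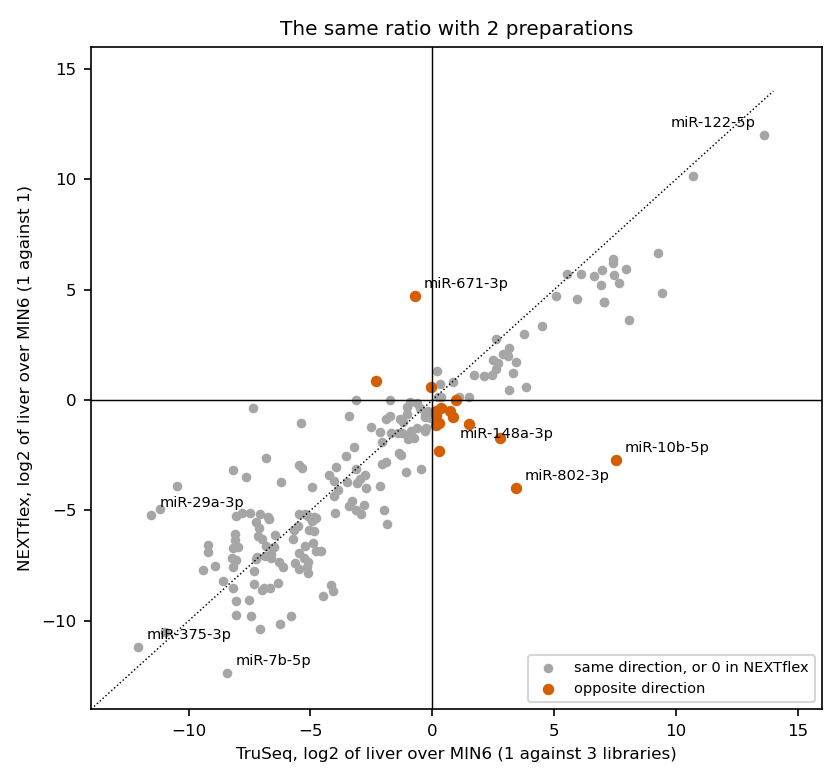
Log2 ratio of liver to MIN6 for the 203 tested miRNAs within NEXTflex (vertical axis, 1 library against 1) against the same ratio within TruSeq (horizontal axis, 1 against 3), with equal ratios on the dotted line. Orange marks the 16 miRNAs of opposite direction, which lie near 0 in TruSeq except for a few such as miR-10b-5p.

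The 5′ start differed between liver and MIN6 for a few miRNAs. A start moved by 1 base shifts the seed by 1 base. For miR-101a-3p, reads that began 1 base before the reference start made up 70.4%, 69.7% and 72.0% of the counts within 5 nt in MIN6 and 31.2% in liver. For miR-101b-3p the same shares were 65.3%, 64.9% and 67.1% in MIN6 and 29.6% in liver. The shift held with NEXTflex, at 44.7% in MIN6 and 16.9% in liver for miR-101a-3p and at 30.8% and 15.4% for miR-101b-3p. The pair is close in sequence, and in TruSeq liver only 27.7% and 49.2% of their counts at the reference start had no mismatch. Whether reads of 1 were counted at the other was not tested. Counted over all starts, the liver excess of the pair was smaller than at the reference start alone, as given above.

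miR-192-5p had the opposite kind of shift. Reads starting 1 base after its reference start made up 17.8%, 19.2% and 19.8% of its counts in MIN6 and 26.6% in liver, and this single isomiR reached 30149 RPMM in TruSeq liver. With NEXTflex the shares were 15.3% and 15.4%, so the difference was not seen there. For miR-411-5p, 38.3% of liver counts began 1 base early against 12.9%, 13.8% and 13.4% in MIN6, and NEXTflex liver had too few counts of it to compare. miR-1839-5p began 1 base late in 18.5% to 20.8% of its MIN6 counts and 26.1% of its liver counts, with 17.0% and 21.4% in NEXTflex. miR-140-3p did so in 72.0%, 69.3% and 70.1% in MIN6 and 64.0% in liver, with 49.4% and 45.6% in NEXTflex. Both kept their direction between the preparations.

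Below these few, a low level of early starts was present at most miRNAs of the liver library. Over the 72 miRNAs with at least 1000 counts near the start in each TruSeq library, the share beginning 1 base early had a median of 1.09% in liver and 0.108%, 0.0944% and 0.114% in MIN6. Liver was above all 3 MIN6 libraries for 64 of the 72 (88.9%). For 61 of the 72 both NEXTflex libraries also held at least 1000 counts near the start, a restriction chosen after seeing the data, and over these the medians were 0.394% in NEXTflex MIN6 and 0.0333% in NEXTflex liver. NEXTflex liver was above NEXTflex MIN6 for 16 of the 61 and below it for 37. Single miRNAs in NEXTflex liver reached up to 18.8%. The share starting 1 base late had medians of 0.0881% in liver and 0.149% to 0.192% in MIN6.

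**Figure D5:**
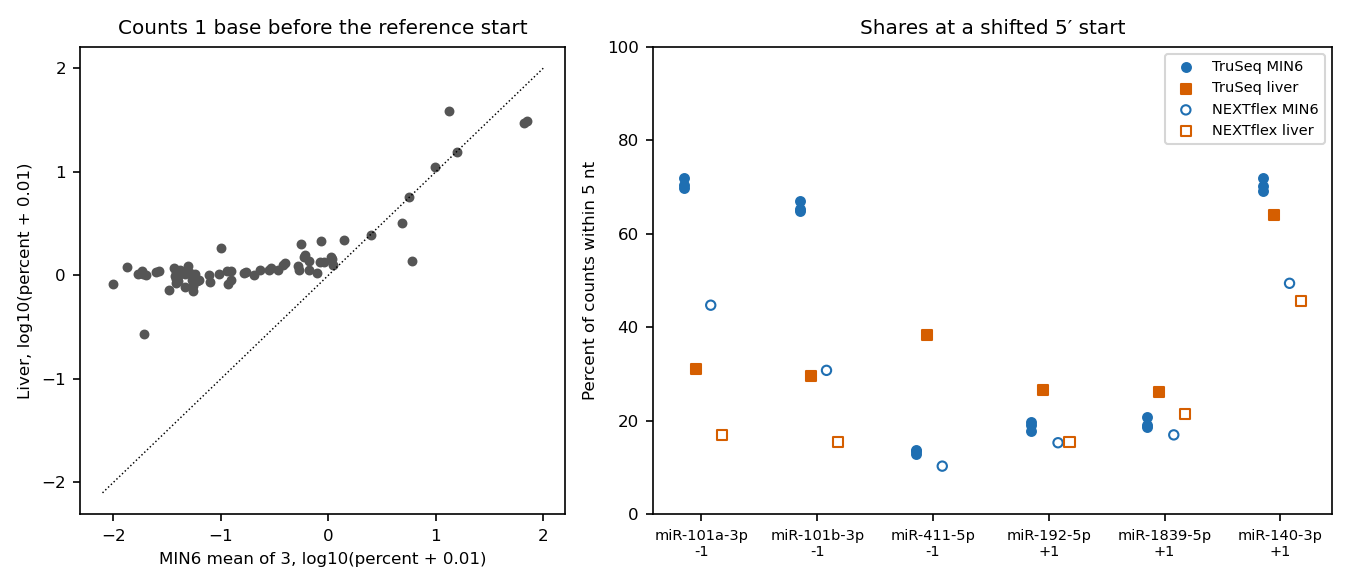
Left, percent of counts within 5 nt of the reference start that began 1 base before it, for 72 miRNAs, in liver against the mean of 3 MIN6 libraries, on log10 axes after adding 0.01; most points form a band near 1% in liver whatever the MIN6 value. Right, share of counts at the shifted start named under each of 6 miRNAs in every library, where the MIN6 circles of the miR-101 pair lie above the liver squares with both preparations.

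The commonest read length at the reference start was mostly the same, but for most miRNAs lengths were more spread in liver. Of 131 miRNAs with at least 100 counts in each of the 4 libraries, 107 had the same commonest length in all 4, and liver was longer for 12 and shorter for 10. miR-194-5p was among the former, with 23 nt as its commonest length in liver and 22 nt in each MIN6 library. miR-92a-3p was another, with 24 nt in liver and 22 nt in MIN6. The share of reads at the commonest length was lower in liver than in all 3 MIN6 libraries for 82 of the 131 and higher for 46. It was 77.0% to 78.0% in MIN6 and 41.9% in liver for let-7i-5p, 85.3% to 85.5% and 61.4% for let-7c-5p, and 73.2% to 76.5% and 50.8% for miR-30a-5p. Among those that went the other way were miR-101a-3p, at 55.1% to 58.1% in MIN6 and 73.8% in liver, and miR-434-3p, at 61.1% to 62.0% and 84.4%.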

How the data were processed

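Small RNA libraries were made from MIN6 cells and mouse liver. The authors deposited 1 alignment table per library with an expected count per alignment, a read placed at several loci being split among them. Adapters were trimmed first. The submitters' processing notes name cutadapt, Bowtie and mm9; versions are not given in the sources used here. Expected counts were summed by 5′ end, divided by the mapped reads the study lists for each library and named by matching to its lists of abundant miRNAs (414 of 414 entries placed, relative tolerance 3e-05), with copies summed to 264 mature miRNAs. In 23 cases an entry matched only where the listed value was above 0. Counts at all loci summed to 3.47% to 8.41% above mapped reads in the TruSeq libraries and to 0.264% and 0.285% above in the NEXTflex libraries. For tests, expected counts were rounded to whole numbers. edgeR 4.0.16 (R 4.3.3; quasi-likelihood, library size equal to mapped reads) compared the 3 MIN6 libraries with the liver library over 203 miRNAs of at least 100 RPMM in 1 of the 4, with Benjamini-Hochberg adjustment at 0.05. On simulated counts for the comparison of liver with MIN6 over 203 miRNAs, 100 of 100 changed and 0 of 103 unchanged miRNAs were called. The changed miRNAs were 50 set at 2-fold and 50 set at 8-fold. With a single liver library, whether these counts hold under the real spread between liver samples was not tested. Folds used RPMM plus 1. The MIN6 replicate pairs differed beyond sampling noise (chi-square per degree of freedom of 49.7 to 58.3). Each MIN6 library counted as 1 sample, and the paper calls these libraries biological replicates.

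Named miRNAs were all members of the beta-cell and hepatocyte lists, the 10 highest of each source, the 5 largest folds a side at 1000 RPMM or more, and the 3 highest of each other list, each with its NEXTflex direction where opposite. Other miRNAs given with values (seed-family members, the miR-29b, miR-100, miR-145, miR-146a, miR-150, miR-195 and miR-451 entries, and those with shifted starts) were chosen after their values were seen. The members and lists were chosen with earlier results of these data known. Alternatives in scaling (TMM, DESeq2 1.42.0 size factors, miRNA-start counts, all counts), filter, counting, added constant, test and replicates left out were run. The v1.5 libraries entered only a fit over all 9 libraries.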

Additional observations from a re-analysis of the deposited data

Results flagged for a closer look

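The ratio of liver to MIN6 had opposite directions in the 2 preparations for 4 of the named miRNAs, with the TruSeq liver library above all 3 TruSeq MIN6 libraries in each case; the difference itself was not tested, as NEXTflex has 1 library a side. Within NEXTflex the log2 ratio was -2.73 for miR-10b-5p (7.55 within TruSeq), -4.0 for miR-802-3p (3.45 within TruSeq, with no count in NEXTflex liver), -0.49 for miR-148a-3p (0.72) and -0.76 for miR-148a-5p (0.84).

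Among reads at 5′ ends of any kind, those of 30 to 32 nt made up 10.3% of the counts of the TruSeq liver library and 0.368%, 0.653% and 0.196% of the MIN6 libraries, with 2.34% in NEXTflex liver and 1.43% in NEXTflex MIN6. TruSeq MIN6 reads ended at 32 nt, and 18.5% of the TruSeq liver counts were longer still. The 100 largest unnamed 5′ ends of the TruSeq liver library held 23.3% of its counts, against 7.03% to 9.46% of the TruSeq MIN6 counts.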

How the results depend on the processing

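No paired analysis was possible because the liver library is single and carries no replicate number. The number called stayed within 1.5 times 197 under the other scalings, without a filter, with exact alignments, with summed or separate starts, in a fit of all 9 libraries and with DESeq2's Wald test (196). Higher in liver were 87 with TMM and 97 with DESeq2 factors, against 52. With 500 RPMM as the minimum, 99 of 100 were called (29 higher, 70 lower), 56 were over 10-fold (15 higher in liver, 41 in MIN6) and 94 had the NEXTflex direction. Over the 71 at 100 RPMM in every library, a set added after seeing the data, 65 were called (22 higher, 43 lower), 11 were over 10-fold (5 in liver, 6 in MIN6) and 59 had the NEXTflex direction. Over 10-fold in liver were 40 with TMM and 45 with DESeq2 factors, and in MIN6 55 with DESeq2 factors. Leaving out a MIN6 replicate gave 194 to 199 calls. Exact alignments put 75.3% of MIN6 and 48.9% of liver counts near named starts, and the named 5′ ends alone held 44.8% in liver. Of 626 alternative log2 ratios for the 56 named miRNAs, 323 moved by less than the replicate SD, 290 moved by more without a change of sign and 13 changed sign: let-7f-5p to 0.45 by miRNA-start counts, 1.99 with TMM, 2.88 with DESeq2 factors and 0.012 with copies apart; miR-26a-5p to 0.33, 1.87 and 2.76 in the first 3 of these; and, with TMM and DESeq2 factors, let-7c-5p to 0.87 and 1.76, miR-191-5p to 0.64 and 1.53 and miR-27b-3p to 0.17 and 1.06. In TruSeq liver 18 tested miRNAs had at most 3 counts, which limits their ratios.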
